A study of Mus musculus with 11 samples.

Results

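The effect of doxycycline by itself was examined in the parent HT22 line, in cells that carry no doxycycline-regulated Klf9 cassette. Its members were picked by their labels, with no measured value in the rule, and they make up 6 of the 11 samples of the study: 3 parent libraries given doxycycline at 0.5 µg/ml and 3 parent libraries given the DMSO vehicle. Both groups were SV40-immortalized mouse hippocampal cells of the same untransfected line, grown with serum, plated for 24 hours and then exposed for 8 hours before total RNA was taken. The remaining 5 samples come from TR/TO-Klf9, a stably transfected derivative in which doxycycline induces Klf9. Their counts entered the choice of the row kept per gene and the flag for overlapping genes. Otherwise they were used only in 1 alternative fit, which left out 2 of their columns that hold identical values. HT22 is a single immortalized line, and the labels do not say whether the replicates were separate cultures, so p-values and intervals measure only the spread between these libraries.

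Doxycycline is a tetracycline antibiotic that stalls bacterial protein synthesis by binding the small ribosomal subunit, and it is the standard inducer of Tet-regulated transgenes. Because mitochondria translate their own genome on ribosomes of bacterial descent, tetracyclines can also slow mitochondrial translation, which in mammalian cells is known to engage the integrated stress response, a programme in which the transcription factor ATF4 raises genes of amino acid synthesis, amino acid transport and tRNA charging. Tetracyclines further bind metal ions and inhibit matrix metalloproteinases. A parent line given the inducer therefore serves as the control that separates the drug from the transgene.

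Depth and library structure set what could be seen. After 1 row was kept per gene, the doxycycline libraries held 10912440, 11183516 and 11541004 counts and the vehicle libraries 18902784, 10302431 and 12572167. Between 15886 and 15998 genes had at least 1 count with doxycycline and between 15790 and 16719 with vehicle. The 3 doxycycline libraries lay close to each other, with a median coefficient of variation per gene of 3.02%, against 4.34% among the vehicle libraries. Parent vehicle 1 stood apart: over 10284 genes with a mean level of at least 8 in counts-per-million units (CPM), its chi-square per degree of freedom was 4.01 to 6.9 against every other library, whereas pairs of opposite treatment without it gave 1.05 to 1.29. Vehicle 2 against vehicle 3 gave 1.61, above every pair of opposite treatment without vehicle 1. Doxycycline replicates 2 and 3 lay within counting noise of each other (0.948, chi-square p = 1), as did replicates 1 and 2 (1.01, chi-square p = 0.194). Replicates 1 and 3 gave 1.03 (chi-square p = 0.00834). The closest pair of opposite treatment, doxycycline 3 and vehicle 3, gave 1.05 (chi-square p = 0.000135), above counting noise. The labels do not say whether doxycycline 2 and 3 were separate cultures, and both stayed in as samples. Alternatives count doxycycline 2 and 3, or all 3 doxycycline libraries, as 1 library. The deviation of vehicle 1 followed the level of a gene: its median was 0.07 on the log2 scale over genes of 5 to 20 CPM and −0.05 over genes of 100 CPM or more, against −0.03 to 0.02 over those 2 levels in the other 5 libraries. Bulk libraries measure shares of RNA, so fewer cells expressing a gene and less of its RNA per cell cannot be told apart.

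What HT22 cells express was described first. The line read as a proliferating, mesenchymal-like culture with a small set of forebrain regulators, and several genes that define neurons had no counts. Levels between genes were compared as counts per kilobase of transcript set to the same total in every library, here called the length-scaled level. Between 12642 and 12659 genes reached a length-scaled level of 1 in the doxycycline libraries and between 12630 and 12815 in the vehicle libraries.

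Among protein-coding genes, structural and matrix genes stood near the top of the length-scaled levels. S100a4, a calcium-binding protein of fibroblasts and motile cells, stood at 1077 ± 43 with doxycycline and 1031 ± 69 with vehicle (SD, n = 3 each, here and below). Vim, the intermediate filament vimentin, averaged 858 ± 11 with doxycycline and 794 ± 96 with vehicle. Col1a2, a chain of type I collagen, averaged 703 ± 14 with doxycycline and 653 ± 80 with vehicle. Lgals1, which encodes galectin-1, Anxa2, an annexin, Pfn1, the actin-binding profilin, and Rack1, a scaffold on the small ribosomal subunit, were also among the 20 highest. So were the mitochondrial ribosome gene Mrps6 and Rpl8 of the cytoplasmic ribosome. The gene span of Mrps6, introns included, overlaps that of Slc5a3. Overlap is given here and below by gene span, and overlap of the transcripts themselves was not examined. Of the 20 highest genes of any kind 11 were microRNA precursors of 63 to 136 nt. The spans of 9 of these overlap that of another gene with counts, and reads of a shared stretch cannot be told apart.

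Mesenchymal and cell cycle markers were high under both treatments. Of 20 fibroblast and mesenchymal genes, 19 passed the filter and 19 reached a length-scaled level of 1 in vehicle cells; the 20 genes summed to 4842, 4771 and 4712 in the doxycycline libraries and 4074, 4870 and 4621 in the vehicle libraries. Of 20 proliferation genes 19 reached that level, with Mki67 at 160.0 ± 2.5 with doxycycline and 154 ± 5.6 with vehicle, and the 20 genes summed to 3367, 3344 and 3314 in the doxycycline libraries and 3049, 3405 and 3287 in the vehicle libraries. In both sums the lowest library was vehicle 1 and the highest was vehicle 2, so the groups overlapped. Top2a, the topoisomerase of dividing cells, had a log2 change with doxycycline of 0.10 (95% interval −0.05 to 0.26), Cdkn1b, the cell cycle inhibitor p27, one of −0.09 (95% interval −0.16 to −0.01), Fn1, fibronectin, one of 0.13 (95% interval −0.08 to 0.33), and Pdgfra, a growth factor receptor of mesenchyme, one of −0.12 (95% interval −0.21 to −0.02). Each of these intervals lay within 1.5-fold.

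Neuronal markers were few. Of 20 pan-neuronal genes 4 reached a length-scaled level of 1 in vehicle cells, namely Tubb3, Syn1, Elavl2 and Thy1. Tubb3, the neuronal beta-tubulin, stood at 40.8, 47.9 and 40.3 in the doxycycline libraries and 44.2, 42.7 and 44.4 in the vehicle libraries. Syn1, a synaptic vesicle protein, stood at 116 ± 0.46 with doxycycline and 116 ± 3.6 with vehicle. Its gene span overlaps those of Araf and Timp1, and reads of a shared stretch could not be told apart. Rbfox3, which encodes the nuclear marker NeuN, Nefl, the light neurofilament, and Uchl1, an abundant neuronal hydrolase, had 0 counts in all 6 libraries. A count of 0 allows up to 0.26 to 0.275 CPM per doxycycline library and 0.159 to 0.291 CPM per vehicle library, taking 3 counts as the limit and covering counting error only.

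Hippocampal identity was present in part. Emx2, a regulator of hippocampal patterning, stood at 13.8 ± 0.14 with doxycycline and 14.5 ± 0.82 with vehicle, and Wfs1, an endoplasmic reticulum protein used as a marker of CA1 pyramidal cells, at 32.2 ± 2.4 with doxycycline and 33.4 ± 0.55 with vehicle. Neurod1, Neurod2, Neurod6, Prox1, Lhx2 and Calb1, which mark granule or pyramidal neurons or their precursors, had 0 counts in all 6 libraries. Gad1, Slc32a1, Sst, Pvalb and Npy of inhibitory neurons were also at 0, although the interneuron regulators Lhx6, at 32.2 ± 1.6 with doxycycline and 35.6 ± 2.9 with vehicle, and Dlx2, at 29.1 ± 1.6 with doxycycline and 31 ± 1.6 with vehicle, were expressed. The labels describe a hippocampal line and the design text neuronal cells; most mature neuronal markers listed here were under a level of 1.

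Markers of other cell types were low apart from single genes. Gja1, the connexin of astrocytes that fibroblasts also express, stood at 196 ± 4.7 with doxycycline and 189 ± 8.6 with vehicle, and Cspg4, a proteoglycan of oligodendrocyte precursors and pericytes, at 83.2 ± 0.37 with doxycycline and 84.3 ± 3.2 with vehicle, while Aqp4, Mag, Olig1 and Cldn5 were at 0 in all 6 libraries. The 8 microglial genes summed to between 14.3 and 16.1 with doxycycline and between 15.6 and 17.8 with vehicle, and the 8 endothelial genes to between 6.08 and 7.12 with doxycycline and between 6.12 and 7.28 with vehicle. Neural progenitor genes were represented by Sox9, at 104 ± 1.5 with doxycycline and 104 ± 1.7 with vehicle, and Msi2, at 157 ± 4.1 with doxycycline and 164 ± 5.4 with vehicle, while Fabp7 and Sox11 were at 0. Of all genes in the 10 marker lists, 0 passed the test described next.

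**Figure D1:**
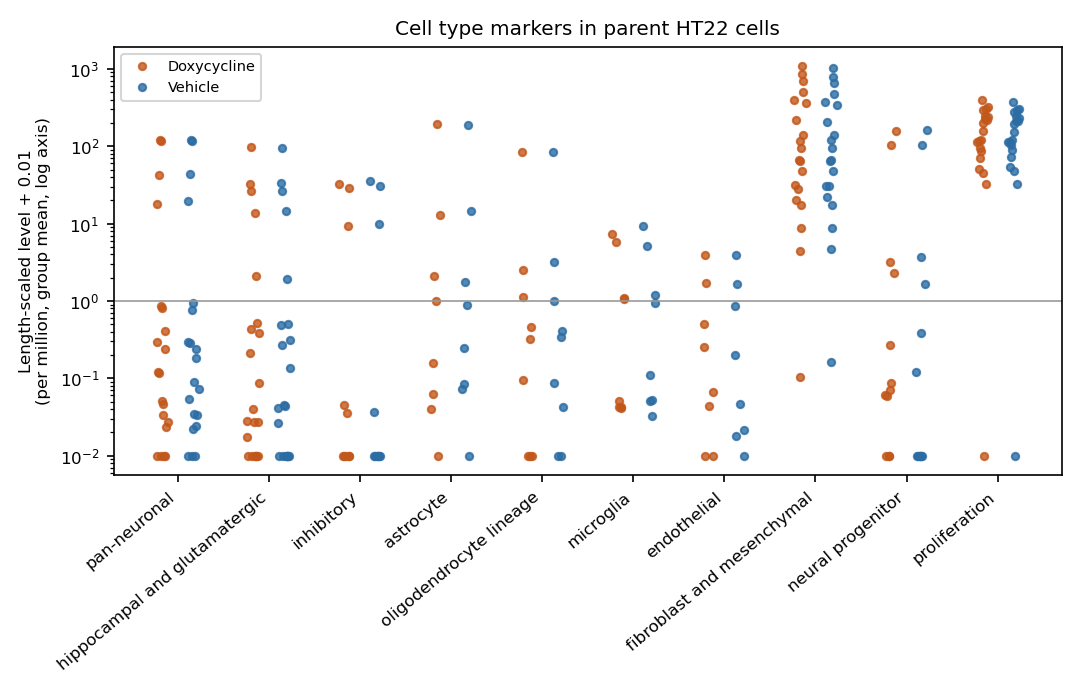
Length-scaled level of each marker gene in the doxycycline group (orange, left) and the vehicle group (blue, right) of parent HT22 cells, as the mean of 3 libraries plus 0.01 on a log axis, with 1 column of points per marker list; points at the bottom had 0 counts. Most fibroblast, mesenchymal and proliferation genes lie above the line at 1, while most neuronal and glial genes lie below it, in both groups alike.

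No gene passed the test for a change with doxycycline. Of 12628 genes tested, 0 (0%) passed an adjusted p of 0.05 in edgeR's quasi-likelihood test with Benjamini-Hochberg adjustment, and the smallest adjusted p was 0.885. At an unadjusted p under 0.05 there were 562 genes (4.45%), with 172 higher (1.36%) and 390 lower (3.09%) with doxycycline. DESeq2 called 0 genes, with 74 at an unadjusted p under 0.05, and limma-voom called 0, with 559. Fitted changes were above 0 for 6066 genes (48%; 33.2% without the trimmed-mean (TMM) scaling of library sizes, where the median of all genes was −0.03), and the median absolute log2 change was 0.05. In 482 genes (3.82%) all 3 doxycycline libraries lay above all 3 vehicle libraries, and in 749 (5.93%) all lay below. Klf9, which doxycycline induces in the derivative line, stood at 39.2, 37.7 and 37.9 CPM in the doxycycline libraries and 40.8, 35.9 and 37.7 CPM in the vehicle libraries, a log2 change of −0.01 (95% interval −0.13 to 0.11).

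A missed threshold does not show that a gene stayed the same, so the size of change that the data allow was bounded for each gene by the 95% interval of its log2 change, doxycycline over vehicle. The whole interval lay within 1.5-fold of no change for 11446 genes (90.6%) and within 25% of it, taken as a ratio of 5/4 in either direction, for 9911 (78.5%). By 2 one-sided tests of equivalence, adjusted over all genes, 11719 (92.8%) were equivalent within 1.5-fold and 10191 (80.7%) within 25%. The bound followed the level. Of 166 genes averaging under 1 CPM none was bounded within 1.5-fold, and of 1635 between 1 and 5 CPM 39.5% were. The share was 98.6% of 1973 genes between 5 and 20 CPM, 100% of 5535 between 20 and 100 CPM, and 100% of 3319 at 100 CPM or more. The median log2 change also followed the level, at −0.04 between 5 and 20 CPM and 0.03 at 100 CPM or more, while list medians below are set beside the 0.00 of all genes tested. The median farthest end of the interval was 1.55-fold between 1 and 5 CPM and 1.09-fold at 100 CPM or more. Among the 10827 genes averaging at least 5 CPM, 10800 (99.8%) were bounded within 1.5-fold and the largest fitted fold was 1.35, that of Zfp688, a zinc finger gene at 6.02, 4.6 and 4.97 CPM in the doxycycline libraries and 7.05, 7.38 and 6.62 CPM in the vehicle libraries.

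In counts simulated with the gene-wise spread of these libraries, 200 of 12628 genes were changed, all drawn from genes averaging at least 5 CPM. The test called 86% of genes changed by 25% and 100% of those changed 1.5-fold or more, with 16 false calls. Of the intervals, 95% held the true change. No deviation of a whole library by level or transcript length was simulated. The shares called say nothing of genes under 5 CPM, and such deviations were outside the trial. The adjusted threshold eases as more genes change, and most of the 200 genes were changed 1.5-fold or more. Fewer changed genes were not tried, so the 86% does not carry over to data where few genes change. Of the changed genes, 5 with a true change of 1.5-fold or more were still called equivalent within 1.5-fold.

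**Figure D2:**
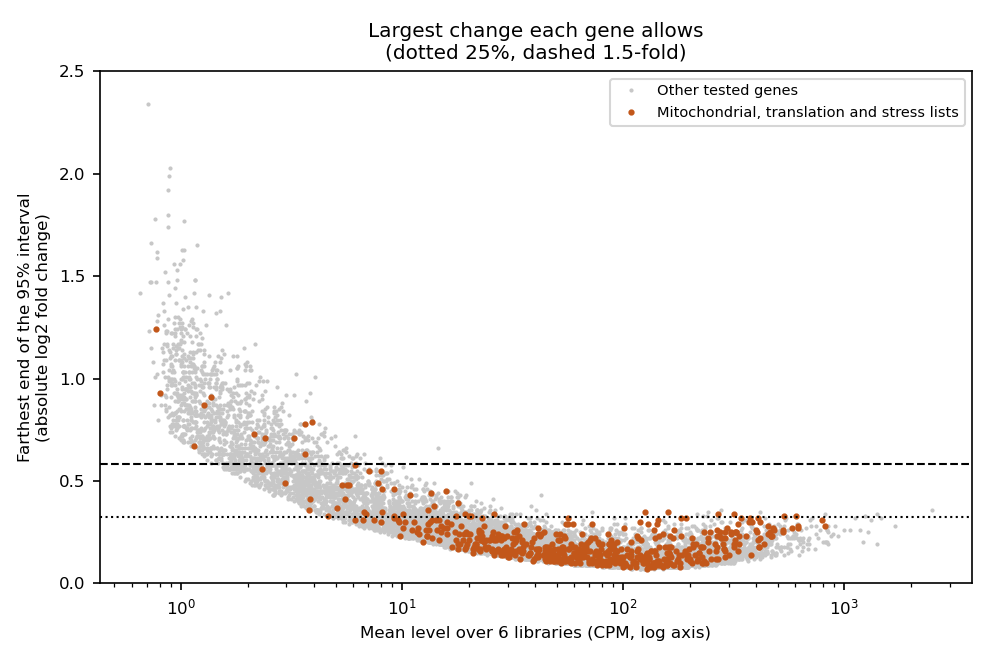
For each of the 12628 tested genes, the farthest end of the 95% interval of its log2 change (vertical axis) against its mean CPM over the 6 libraries (horizontal, log axis), with members of the mitochondrial, translation and stress lists in orange and all other genes in grey. Above 20 CPM every gene lies under the dashed 1.5-fold line, and the orange genes above that line average under 5 CPM.

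The genes of smallest p did not pass the adjustment and moved by small amounts. The chondroitin-synthesis gene Chpf2 stood at 91, 97.2 and 93 CPM in the doxycycline libraries and 104, 105 and 105 CPM in the vehicle libraries, the smallest p of the table (unadjusted p = 0.000396, adjusted p = 0.885 in edgeR). Its log2 change was −0.16 (95% interval −0.24 to −0.08), and its gene span overlaps those of Mir671 and Smarcd3. Gata2, a transcription factor of blood and neural progenitors, stood at 24, 24.1 and 22 CPM in the doxycycline libraries and 28.4, 29.4 and 26.4 CPM in the vehicle libraries, with a log2 change of −0.26 (95% interval −0.41 to −0.12). The doxycycline libraries of both genes lay below every vehicle library. Dzip1l, a ciliary protein, at −0.15, Gdap2 at −0.20 and Wrn, a RecQ DNA helicase, at −0.20 completed the lower side.

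On the higher side, Sap30l, a subunit of SIN3 corepressor complexes, stood at 44.3, 43.5 and 42.6 CPM in the doxycycline libraries and 36.8, 36.6 and 39.9 CPM in the vehicle libraries, with a log2 change of 0.20 (95% interval 0.09 to 0.32). Set, a histone chaperone and phosphatase inhibitor, stood at 75, 80.5 and 76.7 CPM in the doxycycline libraries and 60.3, 67 and 73.6 CPM in the vehicle libraries, with a log2 change of 0.22 (95% interval 0.10 to 0.35). Both genes were higher in every doxycycline library than in any vehicle library. With no filter on low counts Set passed (adjusted p = 0.0269 in edgeR, the only gene of 18316, 0.00546%), and its log2 change was again 0.22. Exosc6, of the RNA exosome, at 0.18, Btg1, an antiproliferative factor, at 0.20 and Alyref, an mRNA export adaptor, at 0.17 followed.

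The genes of the mitochondrion come first, since the mitochondrial ribosome is the known target of the drug in animal cells. The table holds 0 genes of the mitochondrial genome, so mitochondrially encoded transcripts were not analysed here and the lists cover nuclear genes. Of 209 genes entered in 5 lists, 206 were tested, 0 passed, and 204 were bounded within 1.5-fold, a share of 99% beside 90.6% of all genes tested; the members were not matched to other genes by level. At the 25% bound 192 (93.2%) were bounded.

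The mitochondrial ribosome list had 77 genes, all tested, with a median log2 change of 0.01 (−0.02 without TMM scaling, −0.01 without vehicle 1, 0.04 without vehicle 2), beside 0.00 over all genes tested; 76 were bounded within 1.5-fold and 74 within 25%. The summed level of the 77 genes was 4130, 4140 and 4099 CPM in the doxycycline libraries and 3964, 4204 and 4097 CPM in the vehicle libraries. The vehicle libraries held both the lowest and the highest sum. Mrps12, a small-subunit protein of the decoding centre and relative of bacterial ribosomal protein S12, stood at 25.4, 25.1 and 24.9 CPM in the doxycycline libraries and 25.4, 28.6 and 26 CPM in the vehicle libraries. Its highest doxycycline library nearly met its lowest vehicle library, and its log2 change was −0.07 (95% interval −0.21 to 0.07). Mrpl12, which also contacts the mitochondrial RNA polymerase, stood at 60.3, 61.7 and 61.8 CPM in the doxycycline libraries and 49.2, 64.2 and 58.1 CPM in the vehicle libraries. The vehicle libraries spanned the doxycycline libraries, and the log2 change was 0.13 (95% interval −0.03 to 0.29). Of other large-subunit proteins, Mrpl37 had a log2 change of −0.03, Mrpl24 one of −0.11, and Mrpl52, of smallest p among the higher fits, one of 0.14 (95% interval 0.02 to 0.26). Mrps36, at 2.19 ± 0.171 CPM with doxycycline and 2.61 ± 0.125 CPM with vehicle, was the member that could not be bounded within 1.5-fold (95% interval −0.71 to 0.19).

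Mitochondrial gene expression, a list of 28 tested genes for transcription, translation factors and RNA maintenance, had a median log2 change of −0.04, and 28 were bounded within 1.5-fold. Lrpprc, which stabilizes mitochondrial mRNAs, stood at 288, 293 and 290.4 CPM in the doxycycline libraries and 262, 293 and 279 CPM in the vehicle libraries, a log2 change of 0.07 (95% interval −0.04 to 0.17). Gfm1, a mitochondrial elongation factor, had a log2 change of 0.02 (95% interval −0.08 to 0.11). Tfam, which packages and transcribes mitochondrial DNA, averaged 99.5 ± 1.19 CPM with doxycycline and 99.8 ± 1.03 CPM with vehicle, a log2 change of 0.00 (95% interval −0.08 to 0.07). Mtrf1l, a release factor, was lowest in p at 20.4, 22.2 and 23.2 CPM with doxycycline, against 26.1, 23.2 and 23.5 CPM with vehicle. Its doxycycline libraries lay at or below the vehicle libraries, its log2 change was −0.16 (95% interval −0.32 to 0.00), and it did not pass. Mtrf1, its near relative, had the widest bound of the list, at 5.74, 4.69 and 6.89 CPM with doxycycline, against 7.97, 6.69 and 4.94 CPM with vehicle, with overlapping groups and a log2 change of −0.22 (95% interval −0.58 to 0.15). Tufm, the mitochondrial elongation factor Tu, had 5.74, 4.87 and 5.76 CPM with doxycycline, against 6.33, 4.82 and 7.01 CPM with vehicle. The vehicle libraries spanned the doxycycline libraries, and the log2 change was −0.18 (95% interval −0.48 to 0.13). Ppargc1a, the coactivator of mitochondrial biogenesis, did not pass the filter, with 5 counts in the doxycycline libraries together and 9 in the vehicle libraries.

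No respiratory chain gene passed, and sums over the complexes spread more within the vehicle group than between treatments. The 37 tested complex I genes had a median log2 change of 0.04, with 36 bounded within 1.5-fold, and the 39 genes of complexes II to V a median of 0.06, with 39 bounded. These medians rested on the vehicle libraries: without vehicle 1 both were 0.00, and without vehicle 2 they were 0.07 for complex I and 0.12 for complexes II to V. The summed level of complexes II to V was 3277, 3234 and 3200 CPM in the doxycycline libraries and 2743, 3384 and 3118 CPM in the vehicle libraries. The doxycycline libraries lay between vehicle 3 and vehicle 2, and vehicle 1 was the lowest. Atp5b, the catalytic subunit of ATP synthase, stood at 443, 434 and 424 CPM in the doxycycline libraries and 338, 460.4 and 403 CPM in the vehicle libraries, a log2 change of 0.12 (95% interval −0.06 to 0.30). Cox4i1, of cytochrome oxidase, stood at 137, 134 and 131 CPM in the doxycycline libraries and 107, 144 and 127 CPM in the vehicle libraries, a log2 change of 0.11 (95% interval −0.08 to 0.29). In both genes vehicle 1 was lowest and vehicle 2 highest of the 6 libraries. Cox7a2, a small subunit of the same enzyme, stood at 35.9, 38.2 and 37.9 CPM in the doxycycline libraries and 31.2, 36.5 and 33.7 CPM in the vehicle libraries, higher in each doxycycline library than in vehicle 1 or 3, with a log2 change of 0.16 (95% interval 0.03 to 0.29). Uqcrb, of complex III, had 7.32, 5.86 and 6.11 CPM with doxycycline, against 8.17, 7.48 and 7.65 CPM with vehicle and the widest bound of complexes II to V, with a log2 change of −0.29 (95% interval −0.55 to −0.02). Neither passed. Ndufs8, an iron-sulfur subunit of complex I, was even across libraries at 54.2, 54.6 and 54.7 CPM in the doxycycline libraries and 53.5, 56.3 and 52.7 CPM in the vehicle libraries. Ndufs6, an accessory subunit, had the smallest p of the higher complex I fits, at a log2 change of 0.17 (95% interval 0.00 to 0.33). Ndufs5, a small complex I subunit, was the complex I gene that could not be bounded: it had 3.33, 3.15 and 2.96 CPM with doxycycline, against 4.29, 4.13 and 4.07 CPM with vehicle, all doxycycline libraries below all vehicle libraries, with a log2 change of −0.41 (95% interval −0.78 to −0.04) that did not pass.

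Mitochondrial chaperones and proteases were all bounded within 1.5-fold (26 of 26 tested, with a median log2 change of 0.04, and 0.01 without vehicle 1). The list holds genes of the mitochondrial unfolded protein response together with protein import genes, so it does not stand for that response alone. Hspd1 and Hspe1 encode the chaperonin pair of the mitochondrial matrix and lie head to head. Hspd1 stood at 62.3, 59.7 and 60.5 CPM in the doxycycline libraries and 63.6, 63 and 64.3 CPM in the vehicle libraries, lower in every doxycycline library by a small margin, with a log2 change of −0.07 (95% interval −0.16 to 0.02). Hspe1 stood at 24.7, 26.2 and 26.3 CPM in the doxycycline libraries and 25.5, 24.6 and 25.7 CPM in the vehicle libraries, with overlapping groups and a log2 change of 0.03 (95% interval −0.11 to 0.16). Lonp1, the matrix protease, stood at 233, 232 and 226 CPM in the doxycycline libraries and 211, 237 and 230.3 CPM in the vehicle libraries, a log2 change of 0.03 (95% interval −0.07 to 0.13). Clpp, another matrix protease, had a log2 change of 0.00 (95% interval −0.10 to 0.10), and Hspa9, the matrix Hsp70, one of 0.10 (95% interval −0.05 to 0.24). Among import genes, Tomm22 of the outer membrane had the widest bound, with a log2 change of 0.16 (95% interval −0.01 to 0.34), and Pmpcb, of the presequence protease, the smallest p, at 0.08 (95% interval 0.00 to 0.16).

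Glycolysis, the other route to ATP, gave a median of 0.00 over 21 tested genes (−0.02 without TMM scaling), with 20 bounded within 1.5-fold. The log2 change was 0.04 (95% interval −0.05 to 0.14) for Slc2a1, the glucose transporter GLUT1, and −0.03 (95% interval −0.11 to 0.05) for Hk2, a hexokinase. It was 0.06 (95% interval −0.05 to 0.17) for Ldha, lactate dehydrogenase A, and 0.03 (95% interval −0.09 to 0.14) for Pkm, pyruvate kinase. Aldoc, an aldolase at 1.39 ± 0.314 CPM with doxycycline and 1.15 ± 0.0603 CPM with vehicle, could not be bounded (95% interval −0.37 to 0.87).

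**Figure D3:**
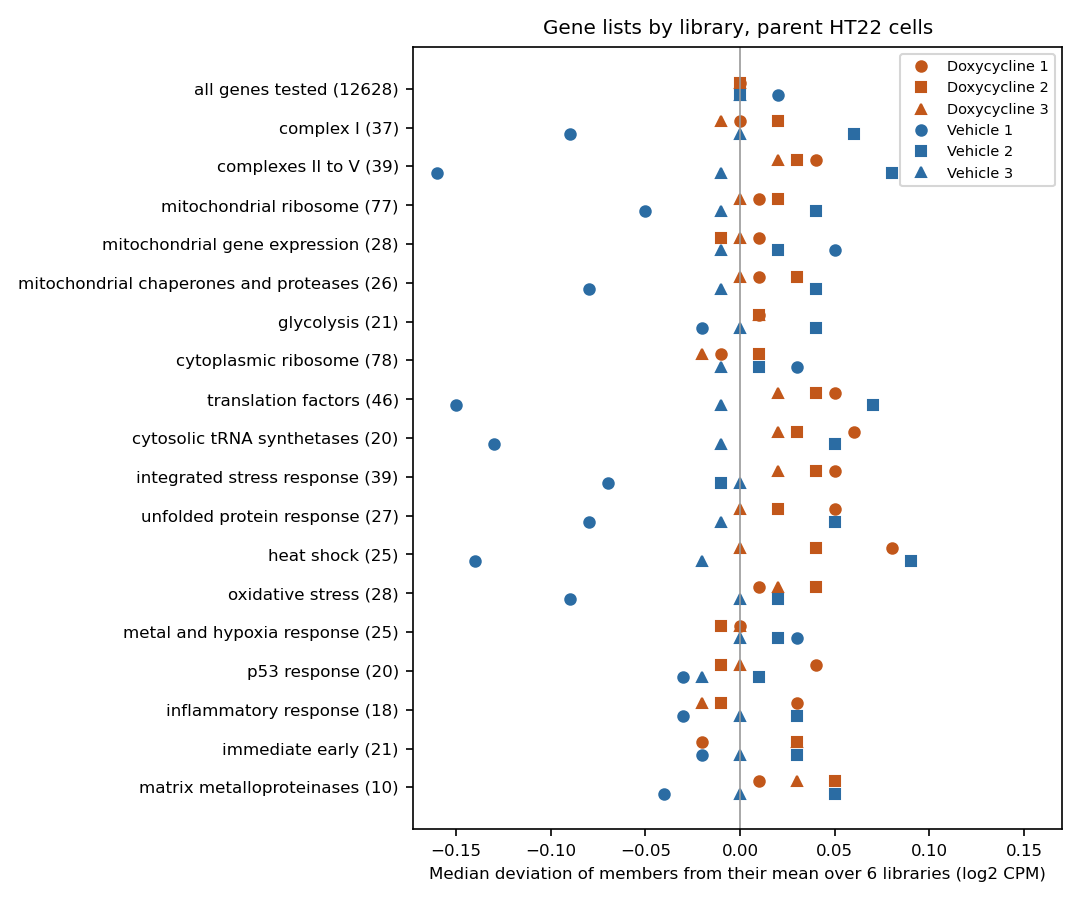
For each gene list (rows, with the number of tested members) and each of the 6 libraries, the median over members of the deviation of log2 CPM from the gene's mean over the libraries; orange marks doxycycline, blue vehicle, and circle, square and triangle libraries 1, 2 and 3. In most lists vehicle 1 lies lowest and vehicle 2 at or above the doxycycline libraries, and the integrated stress response is the list whose 3 doxycycline medians lie above its 3 vehicle medians.

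Translation genes had the highest bounded share of the 3 groups of lists. Of 144 genes tested, 0 passed, 144 were bounded within 1.5-fold (100%, beside 90.6% of all genes) and 137 within 25% (95.1%, beside 78.5%). The bound follows the level, and the members were not matched to other genes by level. Of all genes averaging at least 5 CPM, 99.8% were bounded within 1.5-fold. The 78 cytoplasmic ribosomal protein genes had a median log2 change of −0.01, and their summed level was 3775, 3799 and 3745 CPM in the doxycycline libraries and 3629, 3834 and 3720 CPM in the vehicle libraries. These levels are uncertain, since 63 of the 78 have a pseudogene named after them. Rpl8, of the large subunit, had 284, 282 and 279.5 CPM with doxycycline, against 228, 301 and 273 CPM with vehicle. Rpl7, also of the large subunit, stood at 15.9, 16.9 and 16.5 CPM in the doxycycline libraries and 18.9, 20.3 and 18.6 CPM in the vehicle libraries, lower in each doxycycline library than in any vehicle library, with a log2 change of −0.22 (95% interval −0.39 to −0.05) that did not pass. Rps6, a phosphorylation target of S6 kinase, had a log2 change of 0.10 (95% interval −0.01 to 0.21), and Rpl39 had the widest bound, −0.49 to 0.04.

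The 46 translation factor genes had a median log2 change of 0.06, and 38 of 46 fitted above 0 (82.6%, beside 48% of all genes tested). The list median was 0.01 without vehicle 1 and 0.11 without vehicle 2. Neither this list nor the tRNA synthetases below were matched to other genes by level. The median of all genes at 100 CPM or more was 0.03. The 19 tested proliferation genes also had a median of 0.06, with 84.2% above 0, while 39.7% of the cytoplasmic ribosomal protein genes fitted above 0. Eif4g1, the cap-complex scaffold, stood at 859.8, 852 and 835 CPM in the doxycycline libraries and 679, 886 and 813 CPM in the vehicle libraries. Vehicle 1 was the lowest and vehicle 2 the highest of the 6, and the log2 change was 0.10 (95% interval −0.08 to 0.28). Eif3f, of initiation factor 3, stood at 169.8, 171 and 166 CPM in the doxycycline libraries and 128, 166 and 157 CPM in the vehicle libraries. The lowest doxycycline library nearly met vehicle 2 and all lay well above vehicle 1, with a log2 change of 0.18 (95% interval 0.02 to 0.35). The 20 cytosolic tRNA synthetase genes, many of them ATF4 targets, all fitted above 0, beside 48% of all genes tested. Without TMM scaling 17 of 20 did (85%), beside 33.2% of all genes. Their median was 0.07, and 20 were bounded within 25%. Without vehicle 1 the median was 0.02, and without vehicle 2 it was 0.10. Nars, for asparagine, stood at 345, 339 and 335 CPM in the doxycycline libraries and 280.4, 334 and 319 CPM in the vehicle libraries, a log2 change of 0.13 (95% interval 0.01 to 0.25). Aars, for alanine, had a log2 change of 0.10 (95% interval −0.05 to 0.26), and Vars, for valine, one of 0.05 (95% interval −0.09 to 0.18). By library the median deviation of tRNA synthetases was 0.06, 0.03 and 0.02 in the doxycycline libraries and −0.13, 0.05 and −0.01 in the vehicle libraries, with vehicle 2 among the doxycycline libraries and vehicle 1 far below.

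The integrated stress response is the arm that slowed mitochondrial translation is known to engage. Of 39 tested genes 0 passed, 39 were bounded within 1.5-fold and 36 within 25%, with a median log2 change of 0.06. Of the 39 genes 30 fitted above 0 (76.9%, beside 48% of all genes tested). Without TMM scaling 26 did (66.7%, beside 33.2% of all genes). These shares were not matched by level, and the proliferation list, at 84.2% above 0 with TMM scaling, leaned the same way. ATF4 acts through a short element in target promoters, and the unfolded protein response through another in chaperone promoters. Promoters of 3 responsive genes with a match are shown because they are where such a response would act. Of 11 ATF4-related genes searched, 4 hold the first element in the 250 bases before a start and 7 (Atf5, Cebpb, Ddit3, Mthfd2, Psat1, Sesn2 and Trib3) do not, which says only that these letters are not in that window. Each line gives the 250 bases before the annotated start from RefSeq GRCm38.p6, on the gene's own strand, with the match, on either strand, in capitals.
Asns (chr6:7693210-7693459, minus strand): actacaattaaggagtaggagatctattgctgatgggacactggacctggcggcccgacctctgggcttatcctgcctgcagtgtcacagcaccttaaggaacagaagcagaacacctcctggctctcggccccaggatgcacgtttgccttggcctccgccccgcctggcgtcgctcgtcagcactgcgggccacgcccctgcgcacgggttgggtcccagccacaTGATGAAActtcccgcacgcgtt
Chac1 (chr2:119350992-119351241, plus strand): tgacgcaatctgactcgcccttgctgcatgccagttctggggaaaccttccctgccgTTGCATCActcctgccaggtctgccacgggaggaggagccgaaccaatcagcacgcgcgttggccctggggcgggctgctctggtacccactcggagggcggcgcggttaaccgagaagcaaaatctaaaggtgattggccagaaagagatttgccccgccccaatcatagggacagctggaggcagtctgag
Hspa5 (chr2:34771840-34772089, plus strand): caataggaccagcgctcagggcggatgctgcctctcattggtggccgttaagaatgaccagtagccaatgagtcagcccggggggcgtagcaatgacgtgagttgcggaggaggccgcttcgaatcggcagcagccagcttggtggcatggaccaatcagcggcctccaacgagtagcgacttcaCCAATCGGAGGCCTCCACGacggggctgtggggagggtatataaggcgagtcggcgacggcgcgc
The first and second hold a match to the CARE element (TGATGNAA, either strand) and the third to the ERSE element (CCAAT, 9 bases of any kind and CCACG, either strand, which contains a CCAAT box). A match is a description of letters and not a tested site.

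The genes behind these promoters were expressed without the drug, and none passed the test for a change with it. Asns, asparagine synthetase, stood at 311, 297 and 296 CPM in the doxycycline libraries and 246, 303 and 283 CPM in the vehicle libraries, with overlapping groups and a log2 change of 0.12 (95% interval −0.01 to 0.25). Chac1, which degrades glutathione, stood at 75.4, 73.6 and 66.5 CPM in the doxycycline libraries and 68.5, 72.1 and 66.8 CPM in the vehicle libraries, also with overlapping groups and a log2 change of 0.06 (95% interval −0.04 to 0.16). Over the 250 bases before the start and the 50 after it, 3.97% of 32851 mouse promoters hold the CARE letters. Of 9857 tested genes with a promoter in the table, 263 have a match; their median log2 change was −0.01, beside 0.00 for genes without one, and 0 were called. The ERSE letters, in 0.119% of promoters, occurred in 18 tested genes with a median of 0.00.

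Atf4 itself stood at 284, 281 and 273 CPM in the doxycycline libraries and 212, 298 and 261 CPM in the vehicle libraries. The doxycycline libraries lay between vehicle 3 and vehicle 2, vehicle 1 was lowest, and the log2 change was 0.13 (95% interval −0.08 to 0.34). Ddit3, the proapoptotic factor CHOP, was even, at 58.2, 58 and 53.5 CPM in the doxycycline libraries and 57.9, 57 and 53.8 CPM in the vehicle libraries (its gene span overlaps those of Mars1 and Mbd6), with a log2 change of 0.00 (95% interval −0.10 to 0.11). Trib3, an inhibitor of ATF4 and AKT, stood at 72.6, 71.5 and 73.8 CPM in the doxycycline libraries and 68.9, 72.9 and 72.9 CPM in the vehicle libraries, a log2 change of 0.03 (95% interval −0.06 to 0.12). Among effectors, the serine synthesis genes Phgdh and Psat1 had log2 changes of 0.12 (95% interval 0.02 to 0.22) and 0.10 (95% interval −0.05 to 0.25). Phgdh, at 77.8, 70.3 and 76.1 CPM with doxycycline, against 71.3, 65.7 and 68.5 CPM with vehicle, had the smallest p of the higher fits. The groups overlapped by 1 library. Mthfd2 and Shmt2, mitochondrial folate enzymes under ATF4, had log2 changes of 0.10 (95% interval −0.03 to 0.23) and 0.10 (95% interval −0.04 to 0.25). Shmt2 stood at 317, 326 and 312 CPM in the doxycycline libraries and 258, 328 and 304 CPM in the vehicle libraries, with vehicle 2 the highest library. Slc7a5, an amino acid transporter, had a log2 change of 0.13 (95% interval −0.02 to 0.27), Atf5, a relative of Atf4, one of 0.06 (95% interval −0.04 to 0.16), and Cebpd, a C/EBP factor, fitted lowest at −0.24 (95% interval −0.44 to −0.04). Atf3 was listed at 0 counts in all 6 libraries, Gdf15, a secreted marker of mitochondrial disease, had 4 counts with doxycycline and 11 with vehicle, and Fgf21 had 21 with doxycycline and 41 with vehicle, too few to test.

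By library, the list medians of the integrated stress response were 0.05, 0.04 and 0.02 in the doxycycline libraries and −0.07, −0.01 and 0.00 in the vehicle libraries on the log2 scale, so the doxycycline libraries lay above the vehicle libraries by little. Summed CPM of the same 39 genes did not separate, with 6143, 6085 and 6009 CPM in the doxycycline libraries and 5364, 6092 and 5897 CPM in the vehicle libraries. Vehicle 1, the library that stood apart from all others, had the lowest value on both measures, and without it the median log2 change was 0.03. Its part in the list median was not tested further.

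**Figure D4:**
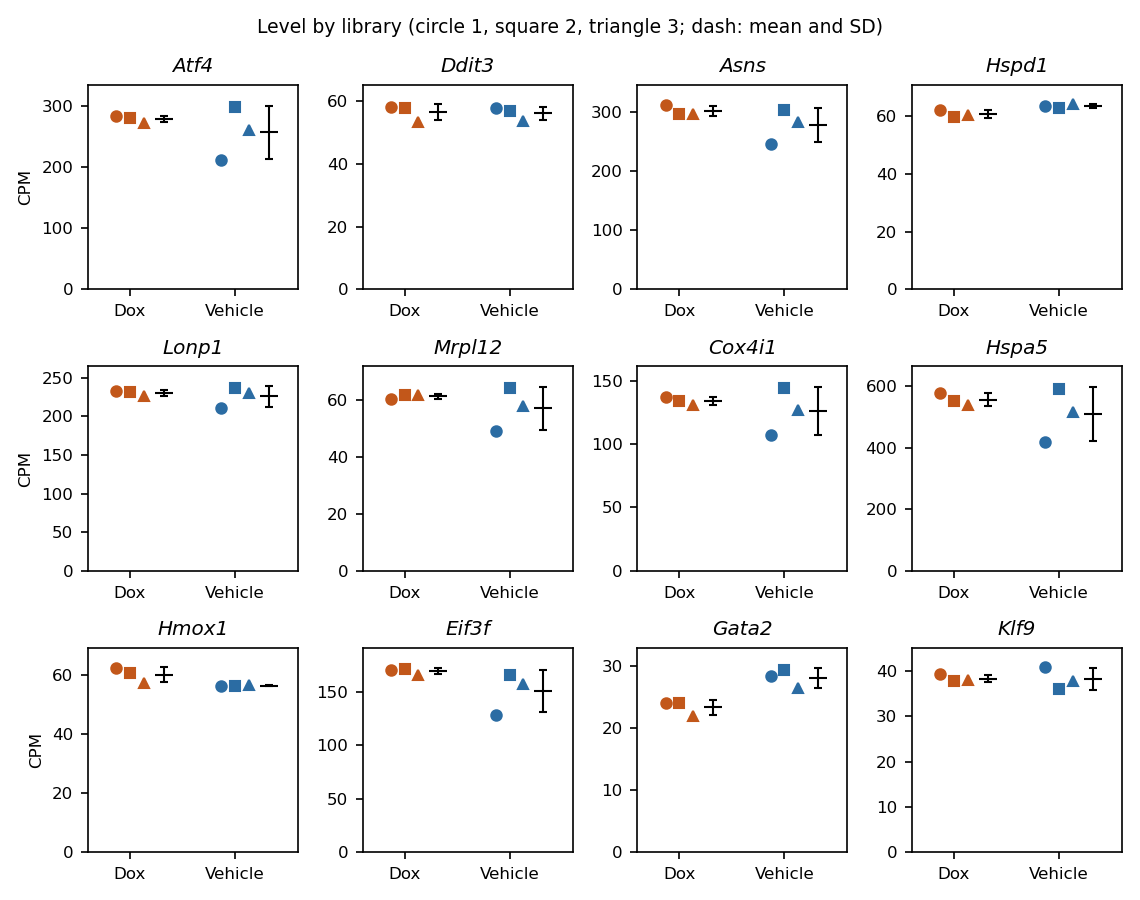
CPM of 12 genes in each parent library, doxycycline on the left in orange and vehicle on the right in blue (circle, square and triangle for libraries 1, 2 and 3), with the mean and SD of each group as a dash and bar; every axis starts at 0. Vehicle 1 lies lowest for Atf4, Asns, Mrpl12, Cox4i1, Hspa5 and Eif3f, vehicle 2 lies at or above the doxycycline libraries for Atf4, Mrpl12, Cox4i1 and Hspa5, and Gata2 is the panel whose doxycycline libraries lie clearly below its vehicle libraries.

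The unfolded protein response of the endoplasmic reticulum had 27 tested genes with a median log2 change of 0.02 (0.00 without TMM scaling), and 26 were bounded within 1.5-fold. Hspa5, the chaperone BiP, stood at 579, 550.5 and 539.9 CPM in the doxycycline libraries and 419.7, 592 and 517 CPM in the vehicle libraries, with vehicle 2 the highest library and vehicle 1 the lowest, and a log2 change of 0.13 (95% interval −0.07 to 0.33). Hsp90b1, the reticular Hsp90, had the same order of vehicle libraries and a log2 change of 0.14 (95% interval −0.04 to 0.33), and Xbp1, the transcription factor activated by splicing, one of 0.09 (95% interval 0.00 to 0.18). Ern1, the kinase and RNase that splices Xbp1, stood at 62.1, 62.1 and 61.4 CPM in the doxycycline libraries and 71.1, 63.9 and 69.1 CPM in the vehicle libraries, below the vehicle libraries in each doxycycline library, with a log2 change of −0.15 (95% interval −0.24 to −0.05). Its unadjusted p was 0.00489 and its adjusted p 0.885 in edgeR. Manf, a secreted reticular factor, had a log2 change of 0.14 (95% interval 0.02 to 0.27), and Derl3, at 0.681 ± 0.47 CPM with doxycycline and 0.856 ± 0.232 CPM with vehicle, could not be bounded.

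Heat shock genes, the cytosolic chaperones under HSF1, had 25 tested members, all bounded within 1.5-fold, with a median of 0.06 (0.01 without vehicle 1, 0.10 without vehicle 2). Hsp90ab1, the constitutive Hsp90, stood at 612, 599 and 583 CPM in the doxycycline libraries and 478, 637 and 564 CPM in the vehicle libraries, and the vehicle libraries spanned the doxycycline libraries. Its log2 change was 0.10 (95% interval −0.07 to 0.27), and that of Hspa8, the constitutive Hsp70, was −0.07 (95% interval −0.21 to 0.07). Hsp90aa1, the inducible Hsp90, stood at 15, 13.5 and 14.7 CPM in the doxycycline libraries and 18.3, 15.8 and 17.1 CPM in the vehicle libraries, below the vehicle libraries in each doxycycline library, with a log2 change of −0.26 (95% interval −0.45 to −0.08) that did not pass; reads it shares with near-identical copies make its level uncertain. Hspa1a, the most inducible of the Hsp70 genes, had 2, 5 and 3 counts in the doxycycline libraries and 3, 0 and 0 in the vehicle libraries, under the filter. Hsf1 itself had a log2 change of 0.01 (95% interval −0.07 to 0.09).

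The oxidative stress list, led by NRF2 targets, had 28 tested members, 28 bounded within 1.5-fold, and a median of 0.03 (−0.01 without vehicle 1, 0.06 without vehicle 2). Hmox1, haem oxygenase, stood at 62.3, 60.6 and 57.3 CPM in the doxycycline libraries and 56.2, 56.2 and 56.6 CPM in the vehicle libraries, higher in each doxycycline library by a small margin, with a log2 change of 0.09 (95% interval 0.00 to 0.19) that did not pass. Nqo1, a quinone reductase, had a log2 change of −0.07 (95% interval −0.18 to 0.03), and Nfe2l2, which encodes NRF2, one of 0.01 (95% interval −0.07 to 0.09). Txnrd1, thioredoxin reductase, had one of 0.09 (95% interval −0.05 to 0.23). Prdx1, a peroxiredoxin, stood at 123, 118 and 124 CPM in the doxycycline libraries and 106, 120.0 and 110.1 CPM in the vehicle libraries, with vehicle 2 inside the range of the doxycycline libraries, and a log2 change of 0.13 (95% interval 0.04 to 0.22). Its unadjusted p was 0.00733 and its adjusted p 0.885 in edgeR.

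Metal handling was of interest because tetracyclines bind divalent metal ions. The metal and hypoxia list had 25 tested members with a median of −0.01 (−0.03 without TMM scaling), and 23 were bounded within 1.5-fold. Mt1, a metallothionein that zinc induces, stood at 58.5, 59.2 and 57.4 CPM in the doxycycline libraries and 46.9, 60.7 and 55.1 CPM in the vehicle libraries, with vehicle 2 the highest library and a log2 change of 0.14 (95% interval −0.02 to 0.29). Tfrc, the transferrin receptor whose mRNA is stabilized when cells lack iron, had a log2 change of 0.10 (95% interval −0.04 to 0.24), and Ireb2, an iron sensor that binds that mRNA, one of 0.01 (95% interval −0.08 to 0.10). Ankrd37, a HIF1 target, had 3.33, 3.24 and 3.4 CPM with doxycycline, against 4.39, 4.72 and 4.46 CPM with vehicle, all doxycycline libraries below all vehicle libraries, and its log2 change of −0.43 (95% interval −0.79 to −0.07) neither passed nor was bounded. Slc40a1, the iron exporter, was the other unbounded member, at 0.773 ± 0.4 CPM with doxycycline and 0.837 ± 0.242 CPM with vehicle.

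In the remaining response lists no gene passed. The 20 p53 response genes were all bounded within 1.5-fold, with a median of 0.02 (−0.01 without TMM scaling), and Cdkn1a, the p53 target that stops the cell cycle, stood at 150.4, 142 and 140.2 CPM in the doxycycline libraries and 142, 149 and 139 CPM in the vehicle libraries, a log2 change of 0.01 (95% interval −0.07 to 0.09). Of 18 tested inflammatory genes 15 were bounded, with a median of 0.01 (−0.02 without TMM scaling). Nfkbia, the NF-kB inhibitor, had a log2 change of 0.02 (95% interval −0.07 to 0.11), and Ptgs2, cyclooxygenase 2, one of 0.09 (95% interval 0.00 to 0.17). Isg15, Oasl2 and Bst2, all interferon-induced and under 5 CPM, were the 3 that could not be bounded. The 21 immediate early genes were all bounded (median 0.01; −0.01 without TMM scaling), with Jund, an AP-1 subunit, the smallest p at 73.7, 75.3 and 72.7 CPM with doxycycline, against 66, 69.1 and 69.7 CPM with vehicle, and a log2 change of 0.12 (95% interval 0.03 to 0.21).

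Matrix metalloproteinases, whose enzymes tetracyclines inhibit, had 10 tested members with their tissue inhibitors, 8 of them bounded within 1.5-fold by the interval and 10 equivalent by the adjusted one-sided tests (median 0.03, 0.00 without vehicle 1, 0.06 without vehicle 2). Mmp2, a gelatinase, stood at 249, 257 and 244 CPM in the doxycycline libraries and 230.5, 261 and 252 CPM in the vehicle libraries, a log2 change of 0.02 (95% interval −0.09 to 0.12), and Mmp14, the membrane enzyme that activates it, had one of 0.08 (95% interval −0.03 to 0.19). Timp2, the inhibitor that binds both, had a log2 change of 0.09 (95% interval −0.06 to 0.25), and Mmp11, stromelysin 3, one of −0.14 (95% interval −0.27 to −0.01). Mmp9, the other gelatinase, at 3.93 ± 0.294 CPM with doxycycline and 3.31 ± 0.873 CPM with vehicle, and Mmp23, at 1.2 ± 0.189 CPM with doxycycline and 1.09 ± 0.488 CPM with vehicle, were the 2 whose intervals reached past 1.5-fold.

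**Figure D5:**
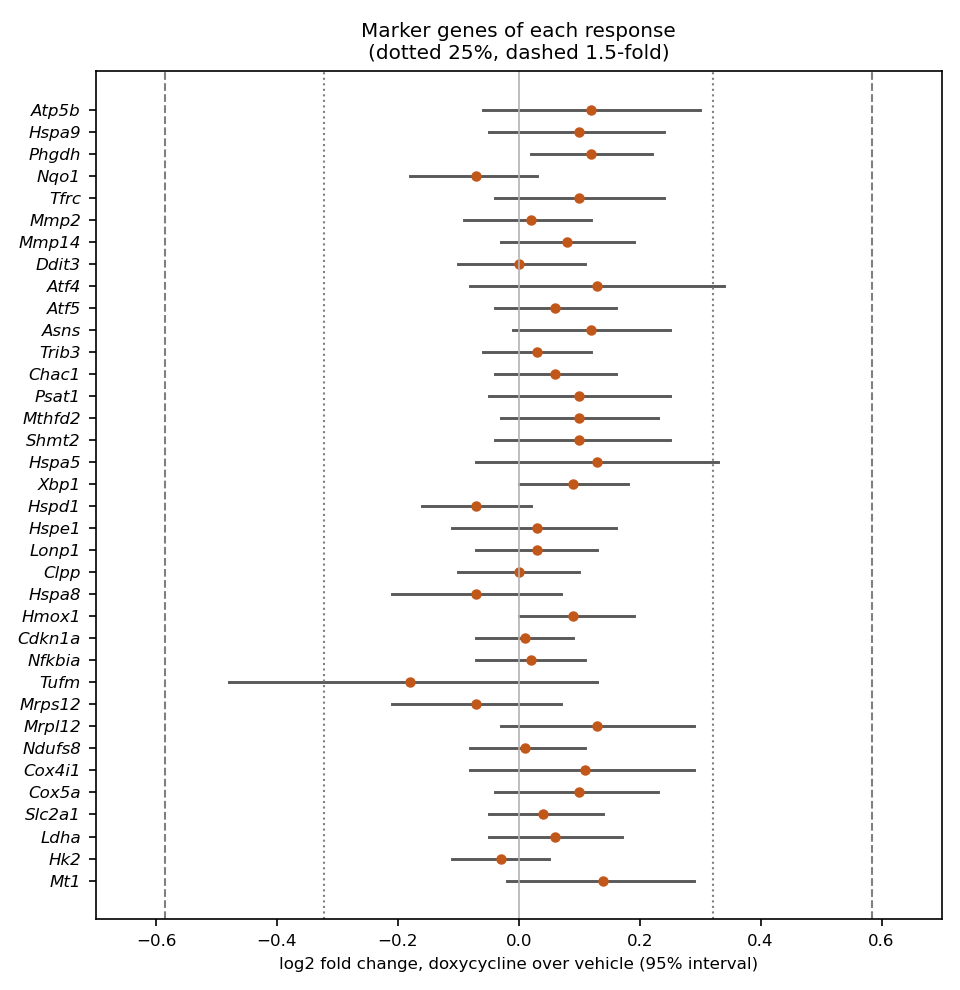
Log2 change, doxycycline over vehicle, of 36 marker genes of the mitochondrial, translation, stress and matrix responses (points) with 95% intervals (lines); the dotted lines mark a ratio of 5/4 (25%) and the dashed lines 1.5-fold in either direction. Every interval lies within 1.5-fold, and those of Atf4, Hspa5 and Tufm reach past the 25% bound.

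In all, the mitochondrial, translation and stress lists left few genes unbounded at 1.5-fold: Ndufs5 and Mrps36 among the mitochondrial lists, Aldoc in glycolysis, none of the translation genes, and 8 of 212 tested stress genes, namely Derl3, Slc40a1, Ankrd37, Isg15, Oasl2, Bst2, Mmp9 and Mmp23. All of them averaged under 5 CPM. By the adjusted one-sided tests 6 of the 212 were not equivalent within 1.5-fold, since Mmp9 and Mmp23 passed there. A further 30 list members had a row but too few counts to test, at most 24 in any library, and 2 of these, Atf3 and Pmaip1, had 0 counts throughout.

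The count of called genes rested on 1 vehicle library. Without parent vehicle 2, 64 of 12786 genes passed in edgeR, 61 higher (0.477%) and 3 lower (0.0235%) with doxycycline, and 1730 (13.5%) had an unadjusted p under 0.05. The comparison then sets the doxycycline libraries against vehicle 3 and vehicle 1, the library that stood apart. Of the 64 genes 13 belong to the lists: 2 of 206 mitochondrial, 5 of 144 translation and 6 of 212 stress genes, beside 64 of 12786 genes in all. The list totals are the members tested with all 6 libraries. Members were not matched to other genes by level, and vehicle 1 deviated by level, so these counts are description only. Eif3f stood at 0.26, Atf4 at 0.25, Manf and Cox4i1 at 0.21 and Prdx1 at 0.17 on the log2 scale in that fit. The called genes had a median transcript of 1859 nt, beside 2899 nt for all genes tested, and vehicle 2 deviated with length (rank correlation −0.19 over 10161 genes, described with no test, against −0.05 to 0.10 in the other 5 libraries). With the length trend of each library removed as well, 3 of 12546 genes passed, all higher (0.0239%): Atp5g3 of ATP synthase, the elongation factor gene Eef1b2 and Vdac1, the outer membrane channel. The genes at an unadjusted p under 0.05 were then 1652 (13.2%), and the 61 genes that no longer passed had adjusted p-values of 0.0562 to 0.0786 in edgeR, just past the threshold. With each of the other 5 libraries left out in turn, 0 genes passed in edgeR, with 397 to 553 at an unadjusted p under 0.05.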

How the data were processed

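Total RNA of 6 parent HT22 libraries was counted per RefSeq transcript by the authors; the deposited values are whole-number counts with no normalization. The submitters' processing notes name the tools CASAVA, FastQC, Bowtie and DESeq and the genome build mm8; what they leave out (versions, counting program, strand setting, annotation) is not given in the sources used here. Per the labels' protocols, libraries were oligo-dT primed. Symbols came from a RefSeq table of GRCm38.p6; 427 of 33815 rows had no symbol (0.782% to 0.785% of counts per parent library). Each of 24143 genes was represented by its row of highest mean count over all 11 libraries of the study, since 2963 of 5136 genes with several rows had identical rows.

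The 6 libraries were fitted with edgeR 4.0.16 in R 4.3.3 (filterByExpr by group, TMM, glmQLFit with robust estimation, glmQLFTest; 4 residual degrees of freedom), with adjusted p-values over 12628 genes and a threshold of 0.05. CPM use TMM-scaled library sizes. Intervals at 95% use the posterior quasi-dispersion. Transcript lengths came from GENCODE M21 (98.2% of tested genes). The test was tried on simulated data. Alternatives were DESeq2 1.42.0, limma-voom 3.58.1 and those in the closing section. The gene lists and the comparison with its members, which are defined by labels alone, were chosen with earlier results of these data known, and list medians carry no test. Named genes were, by rule, those of smallest p, 37 marker genes, and in each list the highest, the smallest p per direction and the widest bound; Tfam, Nfe2l2, Hsf1, Zfp688, the highest protein-coding genes, Tubb3, the untested and unbounded genes and the genes called without vehicle 2 were named after their values were seen. Replicate numbers are shared by both groups but did not pair the samples. Some marker genes are not reported here.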

Additional observations from a re-analysis of the deposited data

How the results depend on the processing

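Across 21 alternatives the number of called genes was 0 except where given here, and the genes bounded within 1.5-fold ranged from 11047 to 11543 and within 25% from 9201 to 10072. The called count was 1 with no filter (Set), 64 without vehicle 2 and 3 without vehicle 2 with the length trend removed, so leaving out each library in turn gave 0 to 64 called, 11139 to 11361 bounded within 1.5-fold and 9374 to 9788 within 25%. Of 378 list medians, 364 moved by less than the replicate spread. Without TMM scaling the medians were −0.06 for mitochondrial gene expression, −0.02 for glycolysis, −0.03 for the cytoplasmic ribosome and for metal and hypoxia, and −0.01 for p53 and immediate early genes. With 1 library left out, mitochondrial gene expression ranged from −0.03 to −0.01, the integrated stress response from 0.03 to 0.08 and metal and hypoxia from −0.02 to 0.00. Complexes II to V ranged from 0.00 to 0.12, the highest list median of any alternative, translation factors from 0.01 to 0.11, tRNA synthetases from 0.02 to 0.10 and heat shock from 0.01 to 0.10, in each case lowest without vehicle 1 and highest without vehicle 2. Without vehicle 2 and with the length trend removed, the cytoplasmic ribosome stood at −0.03, immediate early genes at 0.04 and matrix metalloproteinases at 0.07; without vehicle 1 and with that trend removed, the integrated stress response stood at 0.03. With sample quality weights mitochondrial gene expression stood at −0.01. The cause of these shifts was not tested. With the replicate number as a block 0 genes passed, with 545 at an unadjusted p under 0.05, and 11452 were bounded within 1.5-fold; same-numbered libraries did not deviate together (correlations −0.05, 0.00 and 0.03), so the block pairs samples by number alone. Merging doxycycline 2 and 3, or all 3 doxycycline libraries, gave 0 called and 11409 or 11346 bounded within 1.5-fold.

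Depth limits the bound for genes under 5 CPM, and 1 time (8 hours) and 1 dose (0.5 µg/ml) were measured. Levels of genes with pseudogene copies or overlapping neighbours are uncertain, mitochondrially encoded transcripts were not analysed here, and TMM scaling would hide a change shared by all genes.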

Other observations

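A run of neighbouring genes on the X chromosome was expressed at high levels in every parent library; it was chosen after its values were seen and is given as values only. Of the 17 tested genes from Rbbp7, a histone-binding chromatin subunit, to Gpm6b, a membrane glycoprotein of neurons and glia, 14 stood above a length-scaled level of 100 in vehicle cells, beside 22.7% of all tested genes. Their median level was 251 with doxycycline and 251 with vehicle, beside 44.1 with doxycycline and 45.3 with vehicle over all tested genes and 41.1 with doxycycline and 41.7 with vehicle over 384 other tested genes of the X chromosome. Gpm6b averaged 1498 ± 41 with doxycycline and 1381 ± 70 with vehicle, the splicing factor gene Zrsr2 858 ± 3.7 with doxycycline and 826 ± 50 with vehicle, the clathrin adaptor gene Ap1s2 745 ± 3.7 with doxycycline and 713 ± 10 with vehicle, and Rbbp7 731 ± 7.5 with doxycycline and 703 ± 23 with vehicle (length-scaled level, SD, n = 3 each). Of 11980 windows of 15 neighbouring tested genes outside the protocadherin genes, the highest median in vehicle cells was that of this run. Log2 changes with doxycycline in the run lay between −0.08 and 0.14, and none passed.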
